A study of Homo sapiens with 21 samples.

Results

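Of 26861 regions bound by Flag-tagged estrogen receptor beta (ER-beta) after estradiol, 4985 lay outside promoters and exons and are called element-free regions here. Within 100 bp of their base of strongest signal they held none of the DNA elements through which the receptor is best known to reach chromatin. The name covers that window only, and 1144 of them held such an element elsewhere in the deposited region. The 4985 regions were chosen by their position and sequence. The summit, the base of strongest signal, had to lie outside protein-coding exons and outside promoters, taken as 1000 bp before and 100 bp after the transcription start site (TSS) of a protein-coding gene. Within 100 bp of the summit there could be no estrogen response element (ERE) with up to 2 mismatches in its 10 fixed bases, no perfect 6-base ERE half-site and no 7-base AP-1 palindrome. They made up 18.6% of the estradiol list and 24.2% of its 20641 distal regions. The other distal regions comprised 10334 with an ERE, 1806 with AP-1 but no ERE, and 3516 with a half-site but neither ERE nor AP-1.

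The cells were MDA-MB-231, a triple-negative breast cancer line, carrying a doxycycline-inducible Flag-ER-beta, and all groups received 100 ng/ml doxycycline for 24 h. They were then given 1 nM estradiol, LY500307 (a synthetic ER-beta-selective agonist) or ethanol vehicle for 3 h. The titles give 1 nM for LY500307 and the characteristics give 10 nM, so its dose is uncertain. Chromatin immunoprecipitation with a Flag antibody and sequencing (ChIP-seq) gave 4 ChIP and 3 input libraries per treatment, and the authors deposited 1 list of enriched regions per treatment. The tagged receptor is an introduced copy, its level relative to a natural receptor was not analysed here, and an antibody against the tag reports the tag only.

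Each list was read as a pool, so no value below has a replicate error, no treatment difference was tested, and 95% Wilson intervals on shares cover counting error only. The lists held 26861 estradiol, 10045 LY500307 and 2905 ethanol regions on the assembled chromosomes. Read depth is unknown from the lists. Fold is the authors' enrichment of each region, and since the pools were processed separately, folds of different lists are set side by side and are not a measured change.

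ER-beta is a ligand-activated nuclear receptor. Its dimers recognise the ERE, an inverted repeat of GGTCA and TGACC separated by 3 bases of any kind, and the receptor can also bind a single half-site or be held on DNA by other factors such as AP-1 (a dimer of JUN and FOS proteins). A bound region without these words can still hold a degenerate element, another factor's site or neither, and the half-site word itself is written for nuclear receptors with either A or G in first position.

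The windows of 3 regions with very high -log10 q are shown, because each is among the strongest of the estradiol list although no accepted element is present. These windows are not typical of the element-free regions, whose median fold was 7.59. They are given on the plus strand of hg38 with the closest match to the ERE in capitals, which has 3 mismatches in each. Written with G in first position the half-site is GGGTCA. This word lies near the summit in the CAP2 and BHLHE40 windows, outside the capitals.
EIF3I intron, chr1:32240537-32240737: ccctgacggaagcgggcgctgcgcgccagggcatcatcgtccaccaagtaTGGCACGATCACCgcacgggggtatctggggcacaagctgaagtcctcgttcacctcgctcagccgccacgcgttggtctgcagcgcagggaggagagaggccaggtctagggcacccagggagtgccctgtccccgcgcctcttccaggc
CAP2, chr6:17393880-17394080: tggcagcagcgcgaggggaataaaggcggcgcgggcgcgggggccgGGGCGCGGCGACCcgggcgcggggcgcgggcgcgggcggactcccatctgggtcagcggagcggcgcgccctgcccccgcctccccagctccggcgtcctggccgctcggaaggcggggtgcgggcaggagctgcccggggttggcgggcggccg
BHLHE40, chr3:5026269-5026469: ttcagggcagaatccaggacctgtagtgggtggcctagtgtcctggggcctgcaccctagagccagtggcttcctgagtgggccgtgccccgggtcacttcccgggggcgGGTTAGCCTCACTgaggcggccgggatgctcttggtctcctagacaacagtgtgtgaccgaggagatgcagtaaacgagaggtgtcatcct

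The first window lies in an intron of EIF3I, which encodes a translation initiation factor subunit, 6.6 kb upstream of the nearest protein-coding TSS, that of FAM167B. Its region (chr1:32240278-32240939) had a fold of 180.5 in the estradiol list, 82.9 in the LY500307 list and 10.7 in the ethanol list. The CAP2 region, in the gene's own first kilobase at 0.268 kb from the TSS and 83.1% G+C, had 144.8, 87.2 and 38.4 in the same 3 lists (CAP2 is an actin-regulating protein). The region 46.9 kb downstream of BHLHE40, a basic helix-loop-helix repressor of the circadian system, had 175.0, 90.4 and 33.4. In all 3, the estradiol list had the highest fold and the ethanol list the lowest. The BHLHE40 window also holds the SP1 word GGGGCGG and an AP-2 word.

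Of the 12 regions highest by -log10 q, 8 more lay in an intron of VCAN (the matrix proteoglycan versican), 86.1 kb upstream of CCND1 (cyclin D1), 33.3 kb upstream of FOSL2 (a FOS-family AP-1 subunit), in an intron of SLC45A1 with RERE as the nearest TSS, in an intron of SH3RF3, 2.2 kb upstream of SEMA3B (a secreted semaphorin), 54.7 kb upstream of CDKN2AIPNL and 109.4 kb downstream of REEP3. The estradiol folds of the regions named here ran from 129.8 to 180.5. Each of the 12 was also present in the LY500307 and the ethanol list, and 10 had an ERE match with 3 mismatches. In the strongest of 10 equal parts of the estradiol list by -log10 q, all 287 element-free regions overlapped LY500307. In that part 47.7% of them overlapped ethanol and 86.4% had an ERE match with 3 mismatches. The best placed of the 12 ranked 14 of all estradiol regions by -log10 q. The strongest regions found in the estradiol list alone were far weaker, near FRMD6 (fold 34.9), KDR (the VEGF receptor gene, 36.4), GFI1 (a zinc-finger repressor, 37.5) and TMEM44 (35.3).

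As a group the 4985 regions were weak. Their median fold was 7.59 (quartiles 5.81 and 13.4), against 12.1 (7.59 and 25) in the other distal regions and 13.2 (8 and 27) in those with an ERE. The median was 11.2 for the AP-1 class, while promoter and exon regions stood at 7.01. Their median -log10 q was 11.1, against 25.3 in the other distal regions. When the whole estradiol list was cut into 10 equal parts by -log10 q, the element-free regions supplied 31% of the weakest part and 10.7% of the strongest, with a lower share at each step or an equal one.

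The boundary of the rule was gradual. Regions just outside it, distal with a 2-mismatch ERE and no half-site or AP-1, had a median fold of 11.5 (n = 2587). Those just inside, with 3 mismatches, had 8.64 (n = 3380), those with 4 had 6.43 (n = 1555), and the 50 with 5 or 6 had 6.18. The 215 regions between 100 and 200 bp downstream of a TSS had a median fold of 6.35, and 75 intronic regions without an element that the rule excluded for lying up to 100 bp downstream had 6.

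Many of these regions lay close to a promoter although outside it. Of the 4985, 1363 (27.3%, interval 26.1 to 28.6) lay within 1 kb of a protein-coding TSS, at a median of 357 bp downstream; the upstream side is empty because the rule removes it. In the other distal regions this share was 5.15% (4.81 to 5.51). These promoter-proximal introns were G+C-rich, with a median of 70.1% within 100 bp of the summit and a median fold of 6.01. The 3622 regions farther out had 52.7% G+C and a median fold of 8.93. At more than 100 kb from any TSS there were 725 regions, with 48.3% G+C. Of all 4985, 61.2% were intronic and the rest intergenic. A further check with every annotated gene, noncoding ones included, placed 1002 (20.1%) in some promoter or exon.

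**Figure D1:**
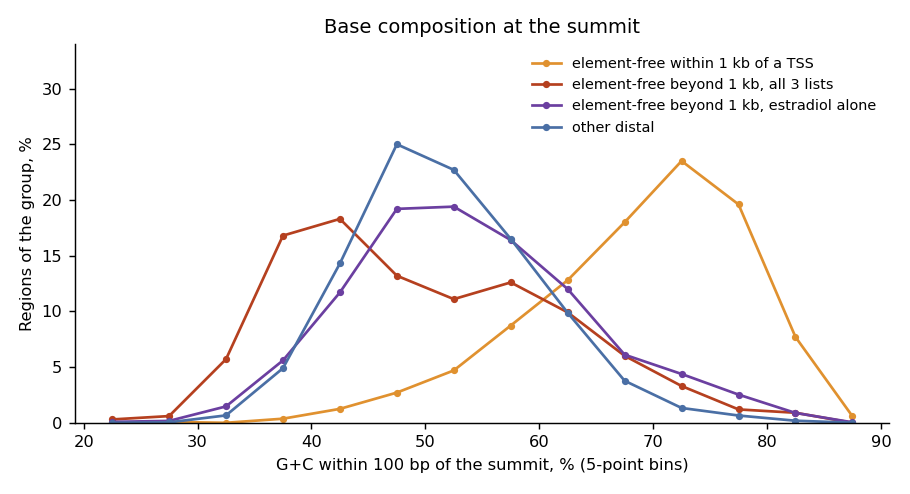
Share of regions (y axis, % of each group) by G+C content within 100 bp of the summit (x axis, 5-point bins) for element-free regions within 1 kb of a TSS, element-free regions beyond 1 kb that were in all 3 lists or in the estradiol list alone, and the other distal regions. The promoter-proximal group centres near 70.1% G+C, and the all-3-lists group beyond 1 kb (median 48.3%) has its main mode at low G+C.

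Overlap with the LY500307 list was a little lower than in the whole list, and overlap with the ethanol list a little higher. Of the element-free regions, 1548 (31.1%, 29.8 to 32.4) overlapped an LY500307 region by at least 1 bp, against 36.5% (35.7 to 37.3) of the other distal regions and 33.8% of all estradiol regions. With ethanol the shares were 11.3% (563 regions, 10.4 to 12.2), against 7.98% (7.57 to 8.42) of the other distal regions and 9.26% of all. When 50% of each region had to be covered, an alternative for the other distal regions added after seeing the data, the ethanol shares were 7.32% (6.63 to 8.08) and 3.9% (3.6 to 4.21) of the other distal regions. Read from the other side, the element-free regions, 18.6% of the estradiol list, met 15.6% of the LY500307 list and 19.6% of the ethanol list. Distal ERE regions met 40.4% and 32.9% of these lists, and all estradiol regions 91.9% and 87%.

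At matched strength the picture was different. In the 5 weaker of the 10 strength parts, 15.8% of element-free regions (498 of 3149) overlapped an LY500307 region, against 2.93% of other distal regions (175 of 5964), a difference of 12.9 points (Newcombe interval 11.6 to 14.3). For ethanol these shares were 10.3% (323 regions) and 1.04% (62 regions), a difference of 9.22 points (8.16 to 10.3). With 50% of each region covered, they were 11.6% and 2.28% for LY500307 and 7.46% and 0.755% for ethanol. In the strongest part every region of both kinds overlapped LY500307, and 47.7% of element-free against 51.1% of other distal regions overlapped ethanol, with an interval of the difference from -9.46 to 2.82 points. Weighting the other distal regions to the strength of the element-free ones gave 20.3% for LY500307 and 4.24% for ethanol, against the observed 31.1% and 11.3%.

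The difference was present away from promoters. Among weak regions beyond 1 kb of a TSS, 14.7% of element-free (289 of 1967) and 2% of other distal regions (111 of 5551) overlapped LY500307. For ethanol these were 9.91% and 0.649%. Within 1 kb of a TSS the shares were 17.7% and 15.5% for LY500307, with an interval of the difference that spans 0 (-2.15 to 6.09 points), and 10.8% and 6.3% for ethanol (difference 4.53 points, 1.31 to 7.27).

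**Figure D2:**
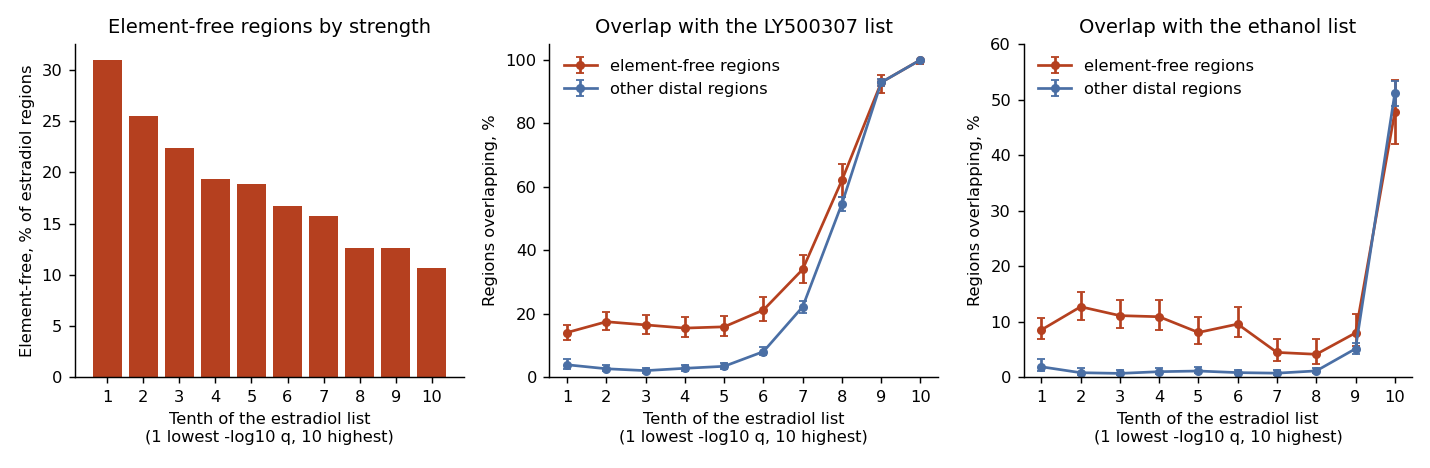
Left, element-free regions as a share of the estradiol regions in each of 10 equal parts ordered by -log10 q. Middle and right, share of element-free regions (red) and of other distal regions (blue) overlapping an LY500307 or an ethanol region, with 95% Wilson intervals. In the weaker parts the element-free regions lie above the other distal regions (15.8% against 2.93% for LY500307 over parts 1 to 5), and the lines meet in the strongest part.

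Of the 563 element-free regions shared with ethanol, 169 (30%, 26.4 to 33.9) had an ethanol fold at or above their estradiol fold. Among distal ERE regions shared with ethanol it was 7 of 937 (0.747%, 0.362 to 1.53), but these were far stronger. Their median estradiol fold was 83.5, against 8 in the 563. Promoter and exon regions shared with ethanol, with a median of 9.23, had it in 91 of 675 (13.5%, 11.1 to 16.3). A cut at an estradiol fold of 20, chosen after the plot was seen, left 394 element-free regions below it and 169 at or above it. Because the cut is made on the estradiol fold, regions above it are more apt to exceed their ethanol fold, so the shares on its 2 sides are not compared. Below it, the ethanol fold was at or above the estradiol fold in 166 element-free regions (42.1%) and in 7 of 52 ERE regions (13.5%). These 52 had a median estradiol fold of 9.86, so the sets still differed in strength. The median fold of the 394 was 6.5 with estradiol and 6.06 with ethanol. Of these, 282 were also in the LY500307 list, with a median fold of 6.95 there, and 112 were not.

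**Figure D3:**
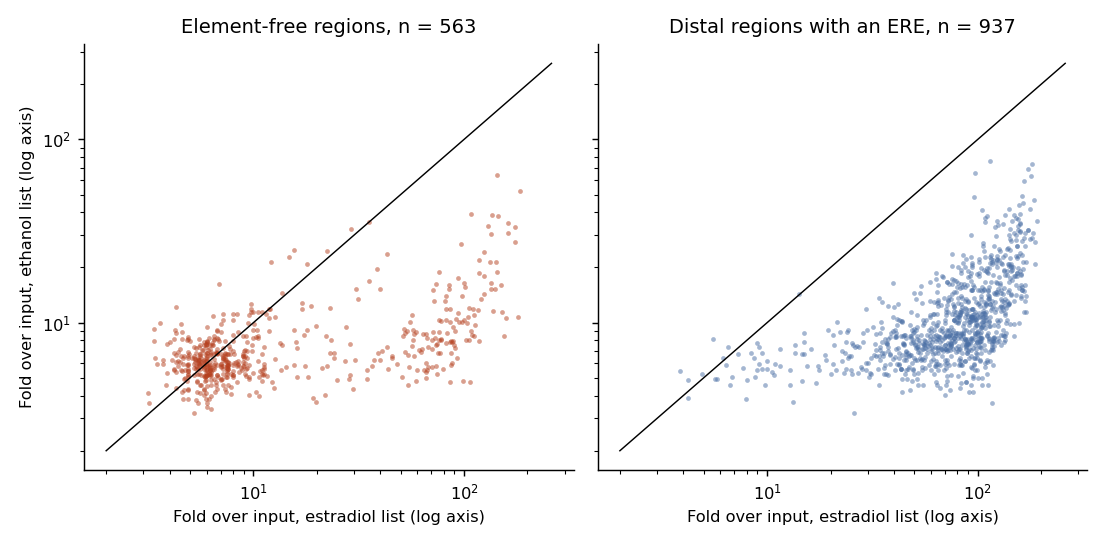
Fold in the ethanol list (y axis) against fold in the estradiol list (x axis, both log axes) for each region found in both, element-free on the left (n = 563) and distal with an ERE on the right (n = 937). The line marks equal folds. A cloud of element-free regions sits on the line at low folds (median estradiol fold 6.5 below 20), and the ERE panel has 52 regions in that range.

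By lists, 3325 element-free regions were found with estradiol alone (median fold 7), 1097 with estradiol and LY500307 (19), 451 in all 3 lists (9.8) and 112 with estradiol and ethanol (5.95). Of the last group 62.5% lay within 1 kb of a TSS, against 28.6% of those found with estradiol alone. Overlap with ethanol was highest at both ends of base composition. It was 18.2% (15.9 to 20.7) in the fifth of element-free regions with the lowest G+C, 6.52% in the next, 6.92% in the middle, 10.5% in the fourth and 14.3% (12.3 to 16.7) in the fifth with the highest.

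Although perfect and near-perfect elements were excluded by the rule, weaker relatives of the ERE were common. A palindrome with exactly 3 mismatches stood within 100 bp of 3380 of the 4985 summits (67.8%, 66.5 to 69.1). Windows of the same size 2000 bp downstream that passed the same exclusions had one in 39.5% (38 to 41, n = 3851), and those upstream in 40.8%. Weighted to the G+C content of the summits, the downstream share was 44.5% (41.5 to 47.6). The matches gathered at the summit: 43.9% of 5656 had their centre within 25 bp of it, where 27% of the possible positions lie, and in the downstream windows 26.8% of matches were that central. These comparisons, and those of half-site relatives and repeats below, were chosen after values had been seen.

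The share with a 3-mismatch ERE went with strength. It was 50.5% (47.1 to 53.9) in the weakest of the 10 strength parts and 86.4% (82 to 89.9) in the strongest, and it was 72.8% beyond 1 kb of a TSS against 54.4% within it. By lists it was 73.8% in the regions shared with LY500307 only, 68.2% in those found with estradiol alone, 57.4% in those of all 3 lists and 40.2% in those shared with ethanol only.

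Half-sites with 1 changed base differed in how far they rose at the summit. Of the 18 words that differ from AGGTCA at 1 position, GGGTCA stood at 28.9% of summits and at 7.82% of the windows 2000 bp downstream (10.1% when weighted to the summits' G+C). AGGGCA stood at 32.7% and 14.4% (19.9% weighted). AGGTCG stood at 9.47% and 2.45%, CGGTCA at 5.44% and 1.62%, and ATGTCA at 17.3% and 8.97%. Of the hits of these 5 words between 40.1% and 46.3% lay within 25 bp of the summit. Words that changed the third base were not higher at the summit: AGCTCA stood at 12.4% and 13.5%, AGTTCA at 7.68% and 11.6%, and AGATCA at 8.43% and 12.4%. Also higher than the G+C-weighted downstream windows, by intervals apart, were TGGTCA (13.6% against 8.57%) and AGGACA (17.4% against 12.8%). The same held for AAGTCA (11.6% against 7.63%) and AGGTTA (8.69% against 4.02%). Among all estradiol regions the same windows held GGGTCA in 30.8% and AGGGCA in 29.8%. They held ATGTCA in 16.7%, AGGTCG in 8.28% and CGGTCA in 6.53%, so these 5 words were not particular to the element-free ones.

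One of GGGTCA and AGGGCA was present at 51.3% of element-free summits and 20.7% of downstream windows. The share was 34.4% in the weakest strength part and 74.6% in the strongest. Among the regions shared with ethanol it was 66.9% at estradiol folds of 20 or more and 21.3% below that. The 5-base core GGTCA stood at 2045 of the summits (41%), although the rule had removed every window that held it as AGGTCA. Those regions had a median fold of 9.38 against 7 for the rest. Of the 4985, 1144 (22.9%) held an accepted ERE, half-site or AP-1 word elsewhere in the deposited region, beyond 100 bp from the summit.

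**Figure D4:**
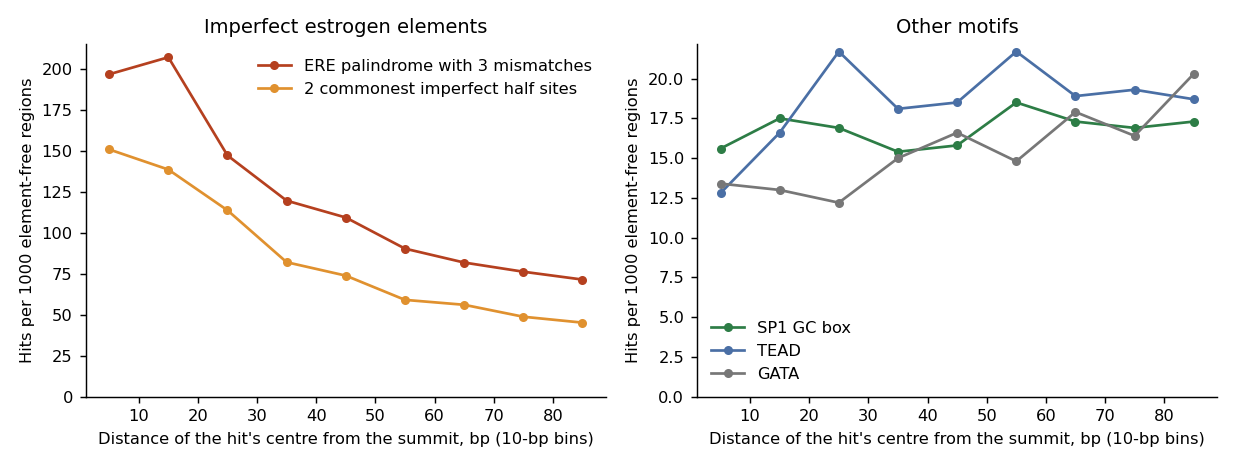
Hits per 1000 element-free regions (y axis) by distance of the hit's centre from the summit (x axis, 10-bp bins, both sides joined; the first bin has slightly fewer positions). Left, ERE palindromes with 3 mismatches and the half-site words GGGTCA and AGGGCA in 1 line; right, SP1, TEAD and GATA words, on a smaller scale. The ERE matches drop to 71.6 per 1000 in the last bin, against 207.4 in the second, while the SP1 line stays between 15.4 and 18.5.

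Of 31 words for other factors, 7 were more frequent at element-free summits than 2000 bp downstream (Wilson intervals apart), 7 were less frequent and 17 had overlapping intervals. Each word was searched on both strands in windows reaching 100 bp to each side. The SP1 GC box GGGGCGG stood at 12.9% of summits (12 to 13.9) and 2.15% of downstream windows, and the AP-2 word GCCNNNGGC at 18.1% and 5.74%. The ETS word CCGGAAG stood at 2.57% and 0.702%, the TEAD word GGAATG (TEAD proteins are the DNA-binding partners of the Hippo effectors YAP and TAZ) at 15.9% and 10.5%, and CAGCTG, bound by basic helix-loop-helix factors, at 13.2% and 8.87%. The NF-kB words (GGGNTTTCC or GGANTTTCC or GGGANTTCC) stood at 2.91% and 1.93% of windows. The CTCF core words, 6 in all, of which AGGTGGCAG is shown in a window here, stood at 3.31% and 1.83%. On the lower side the GATA words AGATAA or AGATAG stood at 12.3% of summits and 17.3% downstream, the NF-Y words CCAATC or CCAATG at 9.91% and 11.9%, and TGAACT, the reverse of the half-site relative AGTTCA, at 7.68% and 11.6%. The words of NRF1, IRF, ZNF143 and OCT, the other 4 on that side, stood at between 0.16% and 1.16% of summits. All estradiol regions held the SP1 word in 10.3%, the AP-2 word in 15.5%, the TEAD word in 16.3%, CAGCTG in 13.9%, the ETS word in 2.66%, NF-kB words in 2.81%, CTCF words in 2.78% and GATA words in 13.5%.

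Base composition moved with these shares, since the median G+C was 56.7% at the summits and 46.3% downstream. With downstream windows weighted to the G+C of the summits, 4 of the 31 words at the summits were above them by intervals that did not overlap: SP1 (12.9% against 9.98%), TEAD (15.9% against 9.55%), ETS (2.57% against 1.24%) and the RUNX word TGTGGT (15.7% against 12.8%), the last not among the 7 and present in 15.6% of all estradiol regions. AP-2 came to 17.5% and CAGCTG to 11.6% under this weighting, and the CTCF core to 4.93%, above the summits. For GATA the direction turned, with 12.3% at summits and 9.8% in the weighted windows, by intervals that overlapped. In the thinnest part of the G+C scale only 27 downstream windows carried the weight. The other distal regions held TEAD in 19.7% and RUNX in 18.7%, above the element-free regions. They held SP1 in 3.39% and ETS in 1.39%, below them. In element-free regions SP1 words were commonest near promoters, at 28.8% within 1 kb of a TSS and 6.93% beyond, while TEAD words stood at 6.82% and 19.4%. Neither SP1 nor TEAD hits were centred, with 25.8% and 21.8% of them within 25 bp of the summit.

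**Figure D5:**
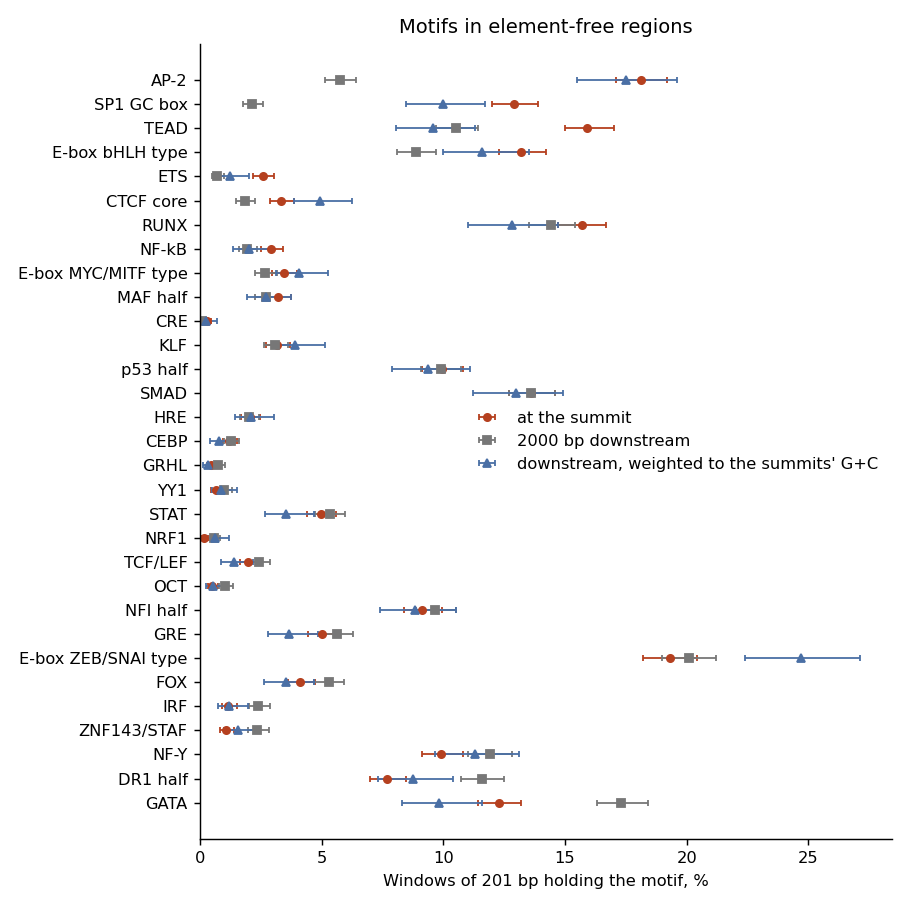
Share of windows (100 bp to each side of the centre) holding each of 31 words (x axis, %) at element-free summits (red circles), 2000 bp downstream (grey squares) and downstream after weighting to the G+C of the summits (blue triangles), with 95% Wilson intervals, ordered by the difference between the first 2. SP1, TEAD and ETS stay above both comparisons, while AP-2 (18.1% against 17.5% weighted) does not.

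Windows of the strongest regions holding 3 of these words are shown with the words in capitals, again on the plus strand of hg38, to set them beside the sequences given earlier; the SP1 and AP-2 words are in the BHLHE40 window.
CCND1, E-box, chr11:69555002-69555202: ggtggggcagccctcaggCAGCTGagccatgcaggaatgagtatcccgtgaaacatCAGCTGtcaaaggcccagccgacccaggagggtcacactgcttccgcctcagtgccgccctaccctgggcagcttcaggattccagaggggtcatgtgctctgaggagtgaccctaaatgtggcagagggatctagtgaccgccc
FLI1, ETS, chr11:128717007-128717207: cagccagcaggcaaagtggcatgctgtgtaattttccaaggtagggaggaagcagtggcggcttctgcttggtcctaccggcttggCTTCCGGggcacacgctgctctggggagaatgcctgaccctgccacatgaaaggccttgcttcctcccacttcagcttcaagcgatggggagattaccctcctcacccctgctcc
CDON, CTCF core, chr11:126109888-126110088: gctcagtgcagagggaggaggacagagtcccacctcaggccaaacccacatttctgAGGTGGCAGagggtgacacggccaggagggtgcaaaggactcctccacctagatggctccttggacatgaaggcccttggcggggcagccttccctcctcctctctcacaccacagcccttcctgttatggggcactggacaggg

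The CCND1 window belongs to the region 86.1 kb upstream of the gene, with folds of 135.4, 61.9 and 38.8 in the estradiol, LY500307 and ethanol lists. The FLI1 window (FLI1 encodes an ETS factor) had 76.2, 31.4 and 8.87, and the CDON window (CDON is a cell-surface co-receptor of Hedgehog ligands) 112.5, 42.9 and 9.69. The words of 7 bases with the largest excess at the summit were G+C-rich. CCCGCCC stood at 15.4% of summits and 2.47% of downstream windows, CCTGCCC at 20% and 7.06%, and CCCCGCC at 15% and 2.87%. CCGGGGC stood at 13.4% and 1.75%, CCCGGCC at 14.3% and 3.57%, CCGCCCC (the SP1 word) at 12.9% and 2.15%, and CCCGGGC at 11.8% and 1.93%. The remaining 3 of the 10 hold all or 5 bases of the half-site relative with G as the fourth base. Of these, AGGGCAG stood at 17.3% and 6.56%, CAGGGCA stood at 15.6% and 5.8%, and CCAGGGC stood at 16.5% and 6.66%. CCTGCCC, whose reverse is GGGCAGG, also holds 5 bases of that relative. Among all estradiol regions the shares of the 10 words ran from 8.72% (CCCGGGC) to 17.7% (CCTGCCC).

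A further sequence feature set apart some of the regions found in all 3 lists. A tandem repeat with a 5-base unit, defined as at least 20 consecutive bases each equal to the base 5 positions on, lay within 100 bp of 25 of the 451 element-free regions of all 3 lists (5.54%, 3.78 to 8.05). The share was 0.638% (7 of 1097) in those shared with LY500307 only and 0.451% (15 of 3325) in those found with estradiol alone. Of those shared with ethanol only, 0 of 112 had it, with a Wilson interval that reaches up to 3.32%. Distal ERE regions of all 3 lists had it in 3 of 919 (0.326%), and the windows 2000 bp downstream of element-free summits in 0.522%. The rule sorted regions by the same window, where a repeat leaves less room for an ERE. The comparison with ERE regions is therefore not independent of the rule. The repeats spanned 26 to 82 bases of the window. Among all 47 element-free regions with such a repeat, the unit was AAAGG or its reverse CCTTT in 18, of which 10 were in all 3 lists, and AGGAT (reverse ATCCT) in 4, all 4 in all 3 lists. It was AGGGC (reverse GCCCT) in 6, of which 2 were in all 3 lists, and 6 others were plain runs of A or T, none of them in all 3 lists.

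Windows of 2 such regions of all 3 lists are shown on the plus strand of hg38, to set their repeat units beside their folds. Capitals mark the longest uninterrupted repeat.
TGFA, chr2:70434991-70435191: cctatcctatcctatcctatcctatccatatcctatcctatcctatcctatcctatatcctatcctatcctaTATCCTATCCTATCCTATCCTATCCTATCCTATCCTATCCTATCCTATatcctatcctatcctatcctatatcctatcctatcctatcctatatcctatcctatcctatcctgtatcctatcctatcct
SLC6A11, chr3:10873499-10873699: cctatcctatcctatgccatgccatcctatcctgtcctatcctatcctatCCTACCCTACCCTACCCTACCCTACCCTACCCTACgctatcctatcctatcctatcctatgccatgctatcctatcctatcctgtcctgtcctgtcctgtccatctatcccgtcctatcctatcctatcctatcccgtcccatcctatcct

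The region 30.6 kb downstream of the TSS of TGFA (transforming growth factor alpha; chr2:70433986-70435534), of unit AGGAT, had folds of 35.3, 44 and 35.6 in the estradiol, LY500307 and ethanol lists. The region in an intron of SLC6A11, a GABA transporter gene (chr3:10873151-10873978), of unit ACCCT, had 29.2, 24.6 and 32.6, so that its ethanol fold was the highest. Not every such region was alike in the lists. The 2 of unit AGGGC, not shown, had higher estradiol folds than these, with ethanol folds far below their estradiol folds. Over the 25 regions the median folds were 10, 11.3 and 10.3 in the estradiol, LY500307 and ethanol lists, and the ethanol fold was at or above the estradiol fold in 17. How reads were mapped at these repeats was not analysed here.

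The element-free regions were nearest to 3567 protein-coding genes, of which 2664 had 1 and 50 had 5 or more. KLF6, a zinc-finger transcription factor, had 11, with folds between 4.91 and 58.1. TLE3 (a Groucho-type corepressor) and PRKAG2 (a regulatory subunit of AMP-activated kinase) had 10 each, and INHBA (the activin beta A subunit) 9. CCND1, IRX3 (a homeobox factor), ZMIZ1 (a PIAS-like coregulator) and MYEOV had 7 each. Of all 4985 element-free regions, 3325 were in the estradiol list alone, 31.1% overlapped LY500307 and 11.3% overlapped ethanol. At PRKAG2, with folds between 4.2 and 11, none of the 10 overlapped another list. At CCND1, with folds between 8.4 and 135.4, 4 of the 7 overlapped LY500307 and 3 overlapped ethanol. These genes had many estradiol regions of every kind, between 14 at IRX3 and 40 at ZMIZ1. The densest megabase, from 69 Mb on chromosome 11, where CCND1 and MYEOV lie, held 18; DNA copy number there was not analysed here.

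Gene groups were read against the 16.4% of all 19663 protein-coding genes with an element-free summit within 20 kb of a TSS. Among classical estrogen targets 9 of 26 had one (34.6%, 19.4 to 53.8). The highest was in CCND1, 1.79 kb from the TSS (chr11:69642603-69643349), with folds of 76.4, 26.1 and 10.4 in the estradiol, LY500307 and ethanol lists, followed by MYB (a transcription factor gene), with 56.5 for estradiol and 23.9 for LY500307 and no ethanol region. In the TGF-beta and SMAD group 12 of 26 had one (46.2%, 28.8 to 64.5), led by an intron of SMAD3, the signal-carrying SMAD (45.3 and 19.6), and by FST, the activin antagonist follistatin (29.5 and 4.72), neither with an ethanol region. In the Hippo group it was 10 of 20 (50%, 29.9 to 70.1), led by TEAD3 with 73.5, 52.2 and 16.2 in the 3 lists and by CCN1, a secreted YAP target, with 44.1 for estradiol and 17.8 for LY500307. Of the AP-1 subunits 8 of 13 had one (61.5%, 35.5 to 82.3), with JUNB at 13.4 in the estradiol list alone and FOSL2 at 9.45 with estradiol and 8.04 with LY500307.

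The remaining groups, apart from the ribosomal one, stood below the 16.4% of all genes, with intervals that included it. Epithelial-mesenchymal transition genes had one at 2 of 20, with SNAI1 (fold 7.32) and ITGB1 (5.68) in the estradiol list alone. NF-kB genes had one at 3 of 21, led by TNIP1 (17.8 with estradiol, 6.65 with LY500307) and CXCL8 (7), and cell-cycle genes at 3 of 21, CCND1 among them and CCNA2 at 6. Cytosolic ribosomal protein genes, taken as a comparison of active genes, had one at 8 of 26 (30.8%, 16.5 to 50), led by RPL3 (33.5 and 8.79). That share was above the 16.4% and close to the 34.6% of the classical estrogen targets. Olfactory receptor genes had one at 1 of 22, OR10H1 (5.81 and 4.39). Of all protein-coding genes 55.2% had an estradiol region of any kind within 20 kb, and of the 26 estrogen targets 18, of the 26 TGF-beta genes 20, of the 20 Hippo genes 18 and of the 13 AP-1 genes 12. The ribosomal group had one at 21 of 26.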

How the data were processed

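The 3 lists of enriched regions are used as deposited, 1 per treatment, each taken as a pool because the labels of its 4 ChIP libraries point to it; which libraries were pooled is not stated. Tools named in the submitters' processing notes are DiffBind, MACS2 2.1.1.20160309 and Bowtie2 2.2.6, with the hg38 build. The fold is the authors' ratio over background, and -log10 q is the deposited significance of each region, as computed by the authors. The deposited summit offset, counted from the region start, placed the windows. The files' -log10 p and display score were not used.

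Only assembled chromosomes (1 to 22, X and Y) were used, which left 26861 of 26896 estradiol records. Genes came from GENCODE 44 and sequence from hg38, read with Python 3.11.15. Motifs were searched on both strands within 100 bp of the summit and 2000 bp downstream. Lists overlapped from 1 bp. The functions were tested on simulated data.

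The regions, words and gene groups were chosen with earlier results of these data known. Regions were named by rule: the 12 highest by -log10 q, the 4 highest in all 3 lists, in estradiol alone, in introns and between genes, the 10 genes with most regions, and 2 genes per group. Some items that these rules select are not reported here. Alternatives were other annotations, promoter widths, windows, half-sites, thresholds and overlaps.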

Additional observations from a re-analysis of the deposited data

How the results depend on the processing

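The 4985 regions became 3309 with promoters of 2500 bp on both sides and 2940 when any 5-base half-site was also excluded; the other 5 definitions gave counts within 1.5 times. The median fold of 7.59 was 8 with promoters and exons of all annotated genes, 8.98 with the wide promoter, 8.04 with a 50-bp window, 7.15 with the whole deposited region searched, 7 with the 5-base half-site and 8.27 at a -log10 q of 5 or more. The LY500307 overlap of 31.1% was 33.4% with the wide promoter, 26.3% with the whole region searched, 25.7% when 50% of each region had to be covered and 29.6% for summits within 200 bp. The ethanol overlap of 11.3% was 10.2%, 9.57%, 12.3%, 13.7% and 10.4% with the wide promoter, the 50-bp window, the 200-bp window, the 5-base half-site and the -log10 q of 5, 7.32% at 50% coverage and 10.4% for summits within 200 bp. The causes were not tested. The 7 words more frequent at summits were 4 after weighting to G+C, and between 6 and 10 under the other 4 settings. The share of all-3-list regions with a 5-base repeat, 5.54%, was 6.21% from 15 bases on, 7.76% from 10 on and 5.45% for summits within 200 bp, all 3 settings added after seeing the data.

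No paired analysis was possible because each treatment has 1 pooled list. Depth is unknown, so absence from a list was not read as absence of binding.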

Other observations

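Regions outside the estradiol list, which took no part in choosing the element-free regions, also held the 5-base tandem repeats. Of 815 LY500307 regions with no estradiol overlap, 29 (3.56%, Wilson interval 2.49 to 5.06) had such a repeat within 100 bp of the summit, against 52 of 9230 (0.563%, 0.43 to 0.738) of those overlapping an estradiol region. Of 377 ethanol regions with no estradiol overlap, 21 (5.57%, 3.67 to 8.37) had one, and of 232 ethanol regions in no other list, 14 (6.03%, 3.63 to 9.87). Other periods were not raised at element-free summits. Repeats of 2, 3, 4 and 6 bases stood at 0.461%, 0.16%, 0.542% and 0.441% of them, against 1.3%, 0.642%, 1.3% and 0.742% of windows 2000 bp downstream. Over all 4985 summits the 5-base repeat stood at 0.943% (0.71 to 1.25), against 0.522% (0.356 to 0.763) downstream, by intervals that overlapped.

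Element-free regions lay about as far from other estradiol regions as the other distal regions did: the median distance to the next summit was 9.14 kb, against 9.64 kb for other distal regions. Of the element-free regions 27.1% had a distal ERE region within 10 kb, and this share was not computed for the other distal regions.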
